A study of Mus musculus with 8 samples.

Results

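The reads described here are the small RNAs of 31 to 35 nt whose first base is G, the size of tRNA fragments cut at the anticodon, in small RNA libraries of male mouse germ cells. They were taken from the deposited sequence counts by length and first base alone, without regard to their abundance. This gave 18293 distinct sequences out of 2137470 in all 8 libraries, and out of 95360 of 31 to 35 nt. The other sequences of that size began with T (45613), A (18317) or C (13125). Single libraries held 1539 to 4454 of the 18293 sequences.

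The libraries fall into 4 groups of 2: male mouse primordial germ cells (mPGCs) of 3 embryonic stages, E12.5, E13.5 and then E15.5, besides D6 mPGC-like cells (mPGCLCs) grown in embryoid bodies from the SGET embryonic stem cell line. The mPGCs carried the GOF18 reporter and came from pooled male genital ridges freed of mesonephros. The labels give them as C57BL/6J sorted on SSEA1 and CD61, whereas the methods of the study describe an FVB/C57BL/6J mixed background, sorting on EGFP, and a different litter for each replicate. The SGET cells are male, of B6CBA/129 background, and were sorted as Stella-GFP positive and Esg1-tdTomato negative. They come from 1 line, so no spread between lines can be given. As the methods of the study state, they were cultured in 2i, then with bFGF and Activin A, and then induced with BMP4, BMP8a/b, LIF, SCF and EGF, which the mPGCs from embryos were not. Total counts ran from 7447873 to 26552524 mapping reads, so 3 counts correspond to a share between 1.13e-05% and 4.03e-05% of a library.

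As background, a tRNA is cut in its anticodon loop by the ribonuclease angiogenin and related enzymes, which leaves a 5′ piece that begins at the mature 5′ end and a 3′ piece that ends in CCA. Such pieces accumulate in stressed cells, and related tRNA fragments are abundant in sperm. Small nucleolar RNAs (snoRNAs) of the C/D class, which guide ribose methylation of rRNA, and Y RNAs, which bind the Ro60 protein, also give fragments of this size. The library kit joined adapters to both ends of an RNA, which needs a 5′ phosphate and a free 3′ hydroxyl. Angiogenin leaves a 5′ hydroxyl on the 3′ piece and a cyclic phosphate on the 5′ piece. The counts are therefore of fragments with ends that could be ligated.

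The sequences were grouped by their first 20 nt, which gave 10973 groups, and the groups were ranked by mean share of mapping reads over the 8 libraries. Of the 10 leading groups, 5 carried a tRNA 5′-end signature, namely the T after the acceptor strand, a D loop that opens and closes with A around a GG, and at least 3 of the 4 base pairs of the D stem. For these 5, the first 30 bases of the most abundant sequence are shown because they open the reads that lead the whole class, with the D loop in capitals:
Glycine GCC, rank 1: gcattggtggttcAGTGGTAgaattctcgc
Lysine CTT, rank 2: gcccggctagctcAGTCGGTAgagcatgag
Valine CAC and GAC, rank 3: gtttccgtagtgtAGTGGTTAtcacgttcg
Glycine TCC, rank 4: gcgttggtggtatAGTGGTGAgcatagctg
Glycine GCC, rank 5: gcatgggtggttcAGTGGTAgaattctcgc

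The amino acid names come from anticodons read in the sequences themselves. Some reads ran past the anticodon, whose first base was at position 33 of the read in ranks 1 and 5 and at position 34 in ranks 2 to 4. The 12-base windows below, from reads of any length that reached past the anticodon, are shown because they name the tRNA, with the anticodon in capitals:
Rank 1, glycine: ctcgcctGCCac
Rank 2, lysine: tgggactCTTaa
Rank 3, valine: ttcgcctCACac
Rank 3, valine, second form: ttcgcctGACac
Rank 4, glycine: gctgcctTCCaa
The anticodon was GCC in 98.5% of 23498 such reads of the rank 1 group, CTT in 99.5% of 2432 reads of rank 2, and TCC in 99.8% of 17921 reads of rank 4. The rank 3 group was mixed, with CAC in 46.2% and GAC in 38.3% of 3921 reads.

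Of the remaining groups among the first 10, 3 matched snoRNA genes and 1 ended as a tRNA does. The group in rank 9 matched neither a GENCODE transcript nor a tRNA signature. The sequences below are shown because they are among the leading sequences of the class without the tRNA 5′-end signature, with capitals for the C box letters TGATGA of C/D snoRNAs, or for the T-arm letters and the terminal CCA of a tRNA:
Snord100, rank 7: gtacaTGATGAaaacagtctccctcttctg
tRNA 3′ end, rank 8, last 30 bases: accgggGTTCGATTCcccgacggggagCCA
Gm23212, rank 10: gcaTGATGAcgaacaaatactgactacctg
Snord49a, rank 11: gataactgacgataactgctcctggctgac
Rny1, rank 13: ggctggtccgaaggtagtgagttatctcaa

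In E12.5 mPGCs the 5′-G reads were 1.18% of all mapping reads of replicate 1 (with a 95% Wilson interval of 1.18 to 1.19) and 1.05% of replicate 2 (1.05 to 1.06). At E13.5 the replicates held 0.488% (0.484 to 0.492) and 1.498% (1.49 to 1.503). At E15.5 they held 0.219% (0.216 to 0.221) and 0.640% (0.637 to 0.643), and in SGET mPGCLCs 0.727% (0.722 to 0.733) and 0.458% (0.453 to 0.462). PCR copies are not independent molecules, so these intervals cover no more than counting error. The gap between replicates was far wider than the intervals in every group. The lowest E13.5 library lay below the highest E15.5 library, so those groups overlapped. In bulk libraries of this kind, fewer cells that make a fragment and less of it per cell cannot be told apart.

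The size class as a whole moved with the replicate. Reads of 31 to 35 nt with any first base were 2.98% and 2.60% of mapping reads at E12.5, then 1.502% and 3.92% at E13.5, then 1.997% and 4.84% at E15.5, against 2.18% and 1.63% in SGET mPGCLCs. Reads of 36 to 43 nt, the longest in the files, moved the same way between the E13.5 replicates (1.01% and 5.25%) and between the E15.5 replicates (0.396% and 2.99%). The part of each library's size range in these differences was not tested.

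Within the size class, the share that began with G was steadier. It was 39.7% and 40.5% at E12.5, then 32.5% and 38.2% at E13.5, then 10.95% and 13.2% at E15.5, against 33.4% and 28.1% in SGET mPGCLCs. The means were 40.1% ± 0.586, 35.4% ± 4.09, 12.1% ± 1.60 and 30.8% ± 3.71 (SD, n = 2 each). Both E15.5 libraries lay below all 6 others. Reads that began with U led at E15.5, with 68.6% and 64.3% of the size class, against 28.7% to 40.3% in the other libraries. Over all lengths, reads with a 5′-G were also fewest at E15.5, with 9.89% and 9.15%, beside 25.3% and 18.04% at E12.5. In the same E15.5 libraries, 26 to 30 nt reads with a 5′-U, the size and first base of piRNAs, held 52.7% and 54.9% of all mapping reads, against 1.28% to 8.68% elsewhere, and every share of the total at E15.5 is set beside them.

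Few sequences carried many of the reads. The 10 most abundant sequences held 33.4% and 37.5% of the 5′-G reads at E12.5, then 29.3% and 47.7% at E13.5, then 13.8% and 31.01% at E15.5, against 30.1% and 27.9% in SGET mPGCLCs. Between 12 and 48 sequences were needed for 50% of the reads in 7 of the libraries, but 229 in E15.5 replicate 1. Only 51 sequences were present in all 8 libraries, and they held 47.6% of the reads, whereas 15933 sequences were found in a single library and held 30.97%. Counted as groups with a common first 20 nt, the 10 leading groups of each library held 48.5% and 53.2% at E12.5, then 39.8% and 63.1% at E13.5, then 19.0% and 37.7% at E15.5, against 43.4% and 37.2% in SGET mPGCLCs.

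The tRNA 5′-end signature was the most frequent feature of the reads at E12.5. It was present in 2098 of the 18293 sequences (11.5%), which held 45.7% and 50.8% of the 5′-G reads at E12.5. At E13.5 it was in 38.3% and 60.8% of reads, at E15.5 in 16.8% and 22.2%, and in SGET mPGCLCs in 37.6% and 27.0%. Both E15.5 libraries were below all 6 others, and the SGET libraries were below both E12.5 libraries. As shares of mapping reads, signature reads were 0.541% and 0.535% at E12.5, then 0.187% and 0.911% at E13.5, then 0.0368% and 0.142% at E15.5, against 0.274% and 0.124% in SGET mPGCLCs. The signature was found in 0.134% of the first 35 bases of 32851 RefSeq promoter windows (GRCm38.p6), which gives the rate at which the letters occur in unrelated sequence. It was in 0.813% of sequences of the same size that began with A, in 2.34% of those with T and in 0.350% of those with C. Among 5′-G sequences of other sizes it was in 1.59% at 26 to 30 nt and in 3.63% at 36 to 43 nt. These percentages count distinct sequences. Counted by reads, the signature was in 2.43% to 46.7% of 31 to 35 nt reads that began with T, depending on the library. It was in at most 1.31% of those with A and 0.625% of those with C. Among 5′-G reads it was in 2.23% to 19.0% at 26 to 30 nt and in 5.87% to 10.5% at 36 to 43 nt. Of all signature reads of 31 to 35 nt, those with a 5′-G were 59.5% and 63.4% at E12.5, then 61.0% and 70.8% at E13.5, then 52.1% and 48.9% at E15.5, against 46.0% and 28.7% in SGET mPGCLCs. Nearly all others began with U, which in SGET mPGCLCs led with 53.5% and 71.1%.

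Every nuclear tRNA gene for which RefSeq sequence was at hand, 13 of 13, showed the signature and the anticodon of its symbol. These 13 are a small part of the 408 nuclear tRNA genes that RefSeq lists. One of them, the valine tRNA gene n-TVcac9, on the minus strand of chromosome 13 from 23446142 to 23446214 (GRCm38), has a sequence that 5 of the 5′-G sequences match, with 24708 reads. The glycine gene n-TGccc7, on the plus strand of chromosome 17 from 25875088 to 25875158, matches 5 sequences with 3400 reads. Other gene copies give the same first bases, so the reads cannot be assigned to 1 gene.

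Anticodons listed by RefSeq could be read in 169 of 469 signature groups, and these held 97.2% of signature reads. Glycine GCC led, with a mean of 0.154% of mapping reads and 14 RefSeq genes. Lysine CTT followed with 0.110% and 24 genes, then the groups in which valine CAC led with 0.0321% and 11 genes, nearly all of it the mixed rank 3 group with its GAC reads, and glycine TCC with 0.0194% and 7 genes. Glycine CCC, valine TAC, cysteine GCA and lysine TTT lay between 0.00265% and 0.00539%, and serine GCT and methionine CAT were lower still, at 0.000485% and 0.000344%. The number of genes and the share did not go together: cysteine GCA has 57 genes, the most of the 10, and ranked seventh. The gene numbers cover every gene of an anticodon, whereas the shares cover only 5′-G reads of 31 to 35 nt. This window held 14.6% of 125365 reads of 20 nt or more in glycine TCC of rank 4, against 76.3% of 45609 in valine of rank 3. The order of anticodons is therefore that of this size alone. Cysteine GCA groups had no reads of 31 to 35 nt in either SGET library, where 3 counts would be a share of 2.94e-05% and 3.15e-05%, and were 0.00842% and 0.00489% of mapping reads at E12.5. At other lengths the leading cysteine group was 0.000578% of mapping reads in SGET replicate 1. In SGET replicate 2 it was 1.05e-05%, which is below the share of 3 counts. The anticodon was GCA in 80.4% of 581 reads of this group that reached it. In E13.5 replicate 2 GCA was in 59.2% and GAA in 40.4%.

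Valine reads showed an anticodon that no RefSeq tRNA gene has. Over the leading signature groups, in reads of any length that reached the anticodon, 2649 carried GAC, 2254 CAC, 1471 TAC and 16 AAC. Only the most frequent anticodons of each group entered these sums. In the rank 3 group AAC was not among them, and the least frequent of them, CAA, had 142 reads. The AAC count is therefore a lower bound. RefSeq lists 8 mouse genes for valine AAC, 11 for CAC, 3 for TAC and none for GAC. GAC reads were present in every library, with 243 and 426 at E12.5, then 126 and 1526 at E13.5. At E15.5 there were 20 and 92, against 126 and 90 in SGET mPGCLCs. The AAC reads that entered the sums were 0 to 6 per library. As background, the first anticodon base of valine tRNA AAC is an adenosine that cells convert to inosine, which reverse transcriptase copies as G, and the study's alignment allowed mismatches. Whether these GAC reads come from the AAC genes was not tested.

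The anticodon begins at base 33 or 34 in the leading groups, so signature reads chosen at 31 to 35 nt had to end near it, and reads of the same groups at other lengths are given further on. Among the reads of this size, the largest fraction in 6 of the 8 libraries ended on the last base before the anticodon, with 30.5% and 28.7% of signature reads at E12.5, then 25.5% and 30.7% at E13.5, then 40.5% and 26.7% at E15.5, against 29.0% and 21.7% in SGET mPGCLCs. Reads that stopped 2 bases short of that position were 7.41% and 13.6% at E12.5, then 20.0% and 12.9% at E13.5, then 11.5% and 0.482% at E15.5, against 27.3% and 35.7% in SGET mPGCLCs. In this pooled value the SGET libraries were the 2 highest of the 8. Where the anticodon begins at base 33, as in glycine GCC, a read of 31 nt or more cannot stop there. Within lysine CTT the SGET libraries held 38.3% and 50.3%, against 46.9% in E13.5 replicate 1. In the leading valine group they held 16.1% and 0%, against 18.7% in E15.5 replicate 1. In glycine TCC they were the 2 highest, with 68.8% and 99.96%. The part of the mix of groups in the pooled value and in the lengths below was not tested. In length, 36.9% and 48.2% of signature reads in SGET mPGCLCs were 31 nt, against 11.3% to 26.5% in the mPGC libraries. The groups differed in this: 39.0% of reads of glycine GCC rank 1 ended on the last base before the anticodon, and 46.3% of lysine CTT reads ended 1 base earlier.

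The glycine GCC group of rank 1 was the most abundant group over the 8 libraries, with 158301 reads in 251 sequences. It held 0.234% and 0.194% of mapping reads at E12.5, then 0.0687% and 0.297% at E13.5, then 0.0194% and 0.110% at E15.5, against 0.103% and 0.0530% in SGET mPGCLCs. Both SGET libraries were below both E12.5 libraries, and E15.5 and E13.5 overlapped. Its reads were of many sizes: 31 to 35 nt reads were 59.2% of all its reads of 20 nt or more, with a mode of 32 nt.

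The lysine CTT group of rank 2 had 132419 reads in 225 sequences and was the most nearly confined to 31 to 35 nt among the tRNA 5′ groups, with 86.4% of its reads of 20 nt or more. It held 0.135% and 0.183% of mapping reads at E12.5, then 0.0606% and 0.390% at E13.5, then 0.00587% and 0.0199% at E15.5, against 0.0464% and 0.0245% in SGET mPGCLCs. All E15.5 and SGET libraries were below all E12.5 and E13.5 libraries. At E13.5 replicate 2 it was the leading group of the library and held 26.04% of the 5′-G reads.

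Valine of rank 3 was 0.0624% and 0.0544% at E12.5, then 0.0217% and 0.0828% at E13.5, then 0.00414% and 0.00174% at E15.5, against 0.0245% and 0.00294% in SGET mPGCLCs. The second glycine GCC group, rank 5, was 0.0345% and 0.0335% at E12.5, then 0.00409% and 0.0399% at E13.5, then 0.00161% and 0.000840% at E15.5, against 0.0118% and 0.00305% in SGET mPGCLCs. In both groups the E15.5 libraries were below every E12.5 and E13.5 library.

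Glycine TCC, rank 4, had another order. It was 0.0201% and 0.0238% at E12.5, then 0.00536% and 0.0271% at E13.5, then 0.000684% and 0.000230% at E15.5, against 0.0496% and 0.0244% in SGET mPGCLCs. Both SGET libraries were above both E12.5 libraries, while both E15.5 libraries were the lowest of all. Reads of the same first 20 nt at other lengths did not follow: they were 0.0816% and 0.0607% of mapping reads at E12.5, then 0.0809% and 0.160% at E13.5, then 0.0931% and 0.0902% at E15.5, against 0.0816% and 0.0681% in SGET mPGCLCs. Of all glycine TCC reads of 20 nt or more, those of 31 to 35 nt were 19.8% and 28.2% at E12.5, then 6.21% and 14.5% at E13.5, then 0.729% and 0.254% at E15.5, against 37.8% and 26.4% in SGET mPGCLCs. Reads of 26 to 30 nt were 51.1% and 38.5% of them at E12.5, then 72.4% and 58.0% at E13.5, then 84.3% and 73.7% at E15.5, against 23.1% and 43.5% in SGET mPGCLCs. The mode was 26 nt in E13.5 replicate 1 and in both E15.5 libraries, and 31 nt in both SGET libraries. The log2 fold change from E13.5 to E15.5 was −5.15 ± 1.74 (SE) for its reads of 31 to 35 nt and −0.39 ± 0.82 for its other lengths, and neither passed edgeR's quasi-likelihood test (adjusted p = 0.272 and 0.831). The difference between these was not tested. The lysine CTT group also had fewer reads of this size in E15.5 replicate 1, where 47.5% of its reads were 31 to 35 nt and 49.1% were 26 to 30 nt, and in E15.5 replicate 2, with 68.9% at 31 to 35 nt, against 79.4% to 96.5% in the libraries of the other groups. The other groups did not all follow: glycine GCC of rank 1 had 33.9% and 66.7% of its reads at 31 to 35 nt at E15.5, the lowest and the highest of the 8 libraries, and valine of rank 3 had 82.2% and 79.2%, against 65.6% to 83.9% elsewhere.

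The tRNA 3′ end of rank 8 was 0.0168% and 0.0123% at E12.5, then 0.00427% and 0.0301% at E13.5, then 0.000860% and 0.00218% at E15.5, against 0.00537% and 0.00456% in SGET mPGCLCs. It was of nearly 1 length, with 97.7% of its reads at 33 nt. The group in rank 12, chosen after its values were seen, begins 4 bases upstream of the same sequence, and 44.7% of its reads of 20 nt or more were the 37 nt form that ends in the same CCA. Its reads of 31 to 35 nt, which lack the CCA, were 0.00251% and 0.00585% at E12.5, then 0.00484% and 0.0118% at E13.5, then 1.47e-05% and 0.000128% at E15.5, against 0.0156% and 0.0134% in SGET mPGCLCs, the 2 highest values of the 8. Reads that end in CCA with the T-arm letters were 3.18% and 2.49% of 5′-G reads at E12.5, then 4.45% and 4.21% at E13.5, then 1.05% and 0.611% at E15.5, against 1.30% and 3.35% in SGET mPGCLCs.

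Exact matches to GENCODE M21 transcripts on the transcript strand accounted for 19.6% and 19.2% of the 5′-G reads at E12.5, then 23.1% and 15.4% at E13.5, then 15.3% and 24.8% at E15.5, against 26.6% and 33.7% in SGET mPGCLCs, over 20 gene types. GENCODE lists no nuclear tRNA genes, so this is a part separate from most signature reads. Both SGET libraries were above all 6 mPGC libraries. Reads with neither a match nor a tRNA signature were 31.97% and 27.9% at E12.5, then 34.4% and 19.9% at E13.5, then 67.3% and 53.0% at E15.5, against 34.8% and 35.9% in SGET mPGCLCs. The rank 12 group shows that they include tRNA pieces. At E15.5 these unmatched reads were short, with 58.4% and 42.1% at 31 nt, against 24.4% to 32.7% in the other libraries. As shares of mapping reads they were 0.147% and 0.340% at E15.5, within the range of 0.164% to 0.379% of the other libraries except for the lower value.

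snoRNA matches were the largest GENCODE type, with 7.36% and 9.21% of 5′-G reads at E12.5, then 12.502% and 8.49% at E13.5, then 6.69% and 13.1% at E15.5, against 14.1% and 22.2% in SGET mPGCLCs. The letters TGATGA of the C box, searched on the strand of the read, were in 30.2% of the snoRNA and scaRNA sequences, in 5.65% of the other 5′-G sequences and in 0.703% of the first 35 bases of promoter windows.

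Snord100, a C/D snoRNA gene on the minus strand of chromosome 10 from 23785750 to 23785823 (GRCm38), was 0.0150% and 0.0115% at E12.5, then 0.00771% and 0.0251% at E13.5, then 0.00302% and 0.0131% at E15.5, against 0.0121% and 0.00448% in SGET mPGCLCs. Of all reads with its first 20 nt, 63.5% were 43 nt long, the longest length in the files. Their lengths ran up to 40 nt and then stood at 43 nt, with none between. Whether 43 nt is the limit of the sequenced read, with longer fragments counted there, was not tested. Those of 31 to 35 nt were 21.2% to 47.7% in 7 libraries, and 69.2% in E15.5 replicate 2. Gm23212, a snoRNA gene on the plus strand of chromosome 1 from 161036682 to 161036741, was 0.0167% and 0.0175% at E12.5, then 0.00478% and 0.0183% at E13.5, then 0.000625% and 0.00240% at E15.5, against 0.00510% and 0.00132% in SGET mPGCLCs. The shares given for Snord100 and Gm23212 are those of their groups with a common first 20 nt. The leading sequence of each matched 2 genes, so the reads cannot be assigned to a single locus. Snord49a, on the plus strand of chromosome 11 from 62603450 to 62603521 and in rank 11, was chosen after its values were seen. Its group held 0.00185% and 0.00753% at E12.5, then 0.00354% and 0.00692% at E13.5, then 0.00212% and 5.65e-05% at E15.5, against 0.0219% and 0.0119% in SGET mPGCLCs, whose values were both above those of the 6 mPGC libraries. The unmatched group of rank 9 had the other order, with 0.0279% and 0.0195% at E12.5 against 0.00141% and 0.000934% in SGET mPGCLCs.

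The Y RNA genes Rny1 and Rny3, on chromosome 6 from 47788069 to 47788180 (minus strand) and from 47781624 to 47781725 (plus strand), matched 11 sequences with 5528 reads, and the leading sequence of each began at base 1 of the Y RNA. Together they were 0.00802% and 0.00472% of mapping reads at E12.5, then 0.00349% and 0.00697% at E13.5, then 0.000272% and 0.000233% at E15.5, against 0.0169% and 0.00699% in SGET mPGCLCs. Both E15.5 libraries were below all others. Rny1 led with 4570 reads, of which 1728 were in SGET replicate 1.

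Mitochondrial tRNAs were rare among the 5′-G reads. Of 22 genes, 8 were matched, by 15 sequences and 524 reads, and 367 and 61 of those reads were in the SGET libraries. The E12.5 libraries had 41 and 49 reads, the E13.5 libraries 0 and 1, and the E15.5 libraries 0 and 5. The gene mt-Tp, for proline, on the minus strand of the mitochondrial genome from 15356 to 15422, was found in SGET replicate 1 alone, with 279 reads, so this count rests on 1 library.

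The leading genes of the other GENCODE types were low. Gm42418, a lincRNA on chromosome 17 from 39846958 to 39848788, had 169 sequences and 9537 reads, with no sequence above 6.31% of them. Lars2, which encodes the mitochondrial leucyl-tRNA synthetase, on chromosome 9 from 123366927 to 123462666, led the protein-coding genes by mean share, 0.00301% of mapping reads. It had 31 sequences and 2439 reads, and its leading sequence, with 12.2% of them, matched 2 genes. A sequence that matched several genes was counted under a single gene, with protein-coding genes put before lincRNAs. These reads therefore cannot be assigned to Lars2 alone. Gm22109, an rRNA gene on chromosome 8 from 123606613 to 123606731, had 3681 reads, and its leading sequence matched 43 genes. mt-Rnr1, the mitochondrial small rRNA gene, had 645 reads. Gm26805, an antisense gene on chromosome 1 from 37865299 to 37871388, had 1 sequence with 2729 reads, nearly all in E15.5 replicate 2, where it was 0.0103% of mapping reads. The leading miRNA gene, Gm23935 (486 reads), and the leading snRNA gene, Gm23444 (268 reads), matched sequences shared with other genes. The leading genes of the remaining 10 types each had 199 reads or fewer.

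The first comparison asked whether the class differed between mPGCs at E13.5 and E12.5. Its mean share was 0.993% ± 0.715 at the later and 1.12% ± 0.0936 at the earlier stage (SD, n = 2 each), a fold of 0.888 ± 0.643 (two-sided exact permutation test, p = 1). With 2 libraries against 2 the smallest p this test can give is 0.333. In a fit of 24 classes of length and first base, the log2 fold change of the class was −0.17 ± 0.68 (SE), which did not pass edgeR's quasi-likelihood test (adjusted p = 0.984), where 4.17% of the classes were called. The direction turned when E13.5 replicate 1 was left out, with a fold of 1.34. Of the groups with a common first 20 nt, 502 of 10973 (4.57%) passed the filter on low counts and held 71.4% of the 5′-G reads. No group among the 502 was called in edgeR, where 0.00451% of all 22196 features tested were called. An unadjusted p under 0.05 in edgeR was found for 6 of 502, beside 748 of the 22196 features. DESeq2 gave 238 of the 502 no adjusted p and called 7 higher and 7 lower, beside 5.31% of the 14450 features with one. The log2 fold changes of the 10 leading groups ran from −1.14 to 0.50.

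From E13.5 to E15.5, the stages around the arrival of piRNAs, the mean share went from 0.993% ± 0.715 to 0.430% ± 0.298 (SD, n = 2 each), a fold of 0.433 ± 0.433 (exact permutation test, p = 0.667). The log2 fold change of the class was −1.21 ± 0.69 and did not pass edgeR's test (adjusted p = 0.154), while 50% of the classes were called. Counted against 21 to 23 nt reads, the length of miRNAs, which were 22.4% and 27.7% of mapping reads at E13.5 and 5.16% and 4.22% at E15.5, the fold was 2.56. Without E15.5 replicate 2 the class passed the test at −2.18 (adjusted p = 0.00720), and without E13.5 replicate 2 the fold was 0.881.

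The lysine CTT group was the only group of 5′-G reads called in this comparison, at a log2 fold change of −4.13 ± 0.86 (edgeR, adjusted p = 0.00112), where 0.266% of all features were called and 0.252% were called lower. The median of all features was −1.13, so the group lay at −3.003 relative to it. The call was lost with TMM normalization (−0.44, adjusted p = 1), which moves the median of all features to 0.48, with DESeq2 (−1.79, adjusted p = 0.641), without the filter on low counts (adjusted p = 0.387), with groups of the first 15 nt (adjusted p = 0.0668) and without E13.5 replicate 2 (−2.24, adjusted p = 0.744). Its adjusted p in edgeR otherwise stayed between 5.8e-05 and 0.0308. At its other lengths the lysine group was at −2.05 ± 1.58 (adjusted p = 0.395). The TMM factors were 0.511 and 0.0947 for E15.5 replicates 1 and 2, against 1.41 to 2.06 for the other libraries. TMM thus rescaled the E15.5 libraries strongly, and unlike each other. The other 4 tRNA 5′ groups of the first 10 were at −1.50 to −5.15, none past the threshold. Of the 502 groups, 20 had an unadjusted p under 0.05 in edgeR, beside 3386 of the 22196 features. Over the 502 groups the median log2 fold change was −4.51, beside −1.13 over all features, and 69 of 502 were above 0. That median was −1.75 with TMM normalization, beside 0.48, and −3.27 with DESeq2, beside −0.73. The filter on low counts, applied alike to all features, needed counts in no more than 2 libraries. Groups could thus pass on the libraries where they were high, with few or no reads at E15.5. The part of this filter in the medians and in the count above 0 was not tested. DESeq2 gave 269 of the 502 no adjusted p and called 9 higher and 14 lower, beside 33.4% of the 13159 features with one.

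SGET mPGCLCs were compared with E12.5 mPGCs, the earliest stage in the series, to ask how far the cultured cells resemble germ cells of the embryo. The mean share was 0.593% ± 0.191 in SGET mPGCLCs, a fold of 0.530 ± 0.176 over E12.5 (exact permutation test, p = 0.333, the smallest possible), and the groups did not overlap. The log2 fold change of the class was −0.92 ± 0.68 and did not pass edgeR's test (adjusted p = 0.947), where 0% of the classes were called, and with only these 2 groups in the fit it did (adjusted p = 0.0172). No group among the 502 was called in edgeR, beside 0.0811% of all features. An unadjusted p under 0.05 in edgeR was found for 11 of 502, beside 788 of the 22196 features. DESeq2 gave 285 of the 502 no adjusted p and called 6 higher and 9 lower, beside 4.86% of the 12729 features with one. The lysine CTT group was at −2.17 ± 0.79 and the glycine GCC group of rank 1 at −1.46 ± 0.71 (edgeR, adjusted p = 0.560 for both). Glycine TCC was at 0.75 ± 1.47 and Snord49a at 1.85 ± 2.09 (adjusted p = 1 for both).

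Against E13.5 mPGCs, which were also used in the comparison with E15.5, the fold of SGET mPGCLCs was 0.597 ± 0.471 (exact permutation test, p = 0.667), and it became 1.22 without E13.5 replicate 2. The log2 fold change of the class was −0.74 ± 0.68 (edgeR, adjusted p = 0.799), where 4.17% of the classes were called. No group among the 502 was called in edgeR, beside 0.122% of all features. Of the 502, 13 had an unadjusted p under 0.05 in edgeR, beside 1275 of the 22196 features. DESeq2 gave 285 of the 502 no adjusted p and called 4 higher and 6 lower, beside 5.97% of the 12729 features with one. Lysine CTT was at −2.67 ± 0.81 (edgeR, adjusted p = 0.349) and glycine TCC at 1.19 ± 1.48 (adjusted p = 0.776).

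The labelled cell types were checked against miRNA markers. The 11 miRNA genes of the germ cell and pluripotency list, of the Mir290 and Mir302 clusters, summed to 42355 and 65128 RPM, counts scaled to the mapping reads of the library, at E12.5, then 37082 and 53408 at E13.5, then 3888 and 2848 at E15.5, against 61715 and 93356 in SGET mPGCLCs. The Mir290 cluster dominated these sums, with Mir292 alone at 26510 and 37431 RPM at E12.5. Each of the Mir302 genes and Mir367 was at 44.4 RPM or less in the mPGC libraries. In SGET mPGCLCs Mir302b was at 566 and 810 RPM and Mir302d at 148 and 377, but Mir302a was at 0 in both. Of the other cells the sort could hold, 4 marker genes were measured, and they summed to between 56.5 and 476 RPM in the mPGC libraries and to 86.0 and 63.7 in SGET mPGCLCs. The planned markers of mesenchyme and smooth muscle, Mir143 and Mir145a, were not measured, so the sums leave those cells out. The erythroid markers Mir451a and Mir144 were each at 0 in 7 of 8 libraries, and Mir202, of the gonadal soma, was at 0 in both SGET libraries. The endothelial marker Mir126a had the other order, with 86.0 and 63.7 RPM in SGET mPGCLCs, which is the whole of their sum, against 1.02 to 37.0 in the mPGC libraries. The sum of the 4 was highest at E13.5, with 310 and 476. The part of other cells in the 5′-G reads was not tested.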

How the data were processed

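Small RNA was sequenced from 8 libraries, 2 in each of 4 groups assigned by their labels. The authors removed adapters and 4 random bases at each end (cutadapt 3.2), aligned the remainder to GRCm38 by STAR 2.5.3a with up to 2 mismatches (versions per the submitters' processing notes), kept 1 random place for each multimapping read, and deposited how often each distinct sequence occurred, as a raw count that is not normalized. The random ends were not used as molecular identifiers, so counts include PCR copies. The mPGC replicates are different litters. Nothing says that the SGET replicates are separate cultures, so their spread may be technical.

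Shares, lengths and matches were computed in Python 3.11.15 with numpy 2.4.6, pandas 2.3.3 and scipy 1.17.1. The tests on counts used the quasi-likelihood method of edgeR 4.0.16 under R 4.3.3. Each model held all 4 groups, with the sum of mapping reads as library size, and p-values were adjusted by Benjamini-Hochberg over all features. Features were 24 classes of length and first base, or the reads of 31 to 35 nt and of other lengths for each first 20 nt. Standard errors were derived from the F statistic. As an alternative, DESeq2 1.42.0 was run. The tests were checked on simulated data. Its dispersion was set below those estimated here, far below for the groups with a common first 20 nt. The check therefore gives no power or error rate for these data. A share is a percent of mapping reads, intervals are 95% Wilson intervals, and an adjusted p under 0.05 was called.

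The design planned a search of the genome for tRNA cloverleaves. It was not run, since no genome sequence was used here, and the signature within the read, chosen after seeing the data, stands in its place. Matches to GENCODE M21 transcripts were exact and full-length, and tRNA genes and promoter windows are those of RefSeq on GRCm38.p6. The rule for names took the 10 leading groups, the groups past the threshold, the leading gene of each GENCODE type by mean share, the 10 leading anticodons, the mitochondrial tRNA genes and the Y RNA genes. Of these, 1 leading group with its gene is not reported here, and the leading genes of 10 GENCODE types are given by their reads alone. Members and lists were chosen with earlier results of these data known.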

Additional observations from a re-analysis of the deposited data

How the results depend on the processing

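Of 268 alternatives to 33 results, 220 kept the direction and the side of the threshold or stayed within the spread or, for counts of groups, within a set ratio. These rules were loose. The spread was an SD from 2 libraries per group, as wide as 0.433 on a fold of 0.433 for E15.5 over E13.5. Results short of the threshold needed only to keep their sign and stay short of it. The total therefore says little about how firm the results are. For the fold of the share, leaving out 1 library gave 0.436 to 1.34 for E13.5 over E12.5, 0.220 to 0.881 for E15.5 over E13.5, 0.409 to 0.650 for SGET over E12.5 and 0.396 to 1.22 for SGET over E13.5. For E15.5 over E13.5 it was 2.56 against 21 to 23 nt reads and 0.873 without 26 to 30 nt 5′-U reads in the denominator, which shrinks most at E15.5. For the log2 fold change of the class, leaving out 1 library gave −1.20 to 0.42, −2.18 to −0.18, −1.29 to −0.62 and −1.34 to 0.28 in the same order. For E13.5 against E12.5 it was 0.0337 with TMM normalization, 0.0823 with DESeq2 and 0.0625 at 31 nt alone. For E15.5 against E13.5 it was 0.25 with TMM, −1.65 (edgeR, adjusted p = 0.0310) at 32 nt and −1.83 (adjusted p = 0.0226) at 33 nt. For SGET against E12.5, it was −0.92 (edgeR, adjusted p = 0.0172) with only those groups in the fit. The count of groups called lower from E13.5 to E15.5 was 0 with TMM, without a filter and with the first 15 nt, and 0 to 2 without 1 library. DESeq2 counts, higher and lower, were 7 and 7, 9 and 14, 6 and 9, and 4 and 6. The E12.5 percent beginning with G was 32.9, 38.8 and 37.3, and the E13.5 percent 26.7, 30.7 and 29.4, over distinct sequences, at 30 to 36 nt and without the 10 most abundant. The 10 leading groups, in place of sequences, held 50.8%, 51.5% and 40.3% at E12.5, E13.5 and in SGET mPGCLCs. GENCODE matches with 1 mismatch were 26.1%, 30.4% and 42.8% at E12.5, E15.5 and in SGET mPGCLCs, and 20.3% on either strand at E12.5. With all 4 D-stem pairs, an alternative added after seeing the data, the signature was in 38.7% and 20.9% at E12.5 and in SGET mPGCLCs. Except where named, the cause was not tested.

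Replicates of different groups share only a number, since the mPGC replicates are different litters. Same-numbered libraries correlated in their deviations at −0.0898 to 0.211 over all features. With the replicate number as a block the class was at −0.34, −1.20, −0.87 and −0.53, no class call changed, and the count of groups called stayed at 0, 1, 0 and 0. The 2 alternatives to the cloverleaf search were not run. The common dispersion was 4.26 among groups with a common first 20 nt and 0.193 among classes.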
